A study of Mus musculus with 10 samples.

Results

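The genes described here are the epidermal growth factor (EGF) family ligands and their ERBB receptors in mouse intestinal tissue. They were taken by symbol from the gene tables of all 10 libraries: 6 ligands (Areg, Ereg, Hbegf, Tgfa, Btc and Epgn) and 3 receptors (Egfr, Erbb2 and Erbb3), which makes 9 of the 19456 genes listed in at least 1 library. RNA was sequenced from C57BL/6 mice that were either transgenic for ITGB6 overexpression (TG) or wild type (WT). The groups were TG mice given 2.5% dextran sulfate sodium (DSS) by mouth (2 libraries), WT mice given 2.5% DSS by mouth (2 libraries), untreated TG mice (3 libraries) and untreated WT mice (3 libraries). DSS is a detergent-like polysaccharide used to injure the colonic epithelium, and ITGB6 encodes the beta subunit of the epithelial integrin alpha v beta 6. The promoter of the transgene, the segment of intestine and the length of DSS treatment are not given in the sources used here.

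EGF family ligands are made as membrane-anchored precursors and are released by metalloproteases of the ADAM family. A released ligand binds EGFR, and some ligands also bind ERBB4; the receptors then pair up and signal through the RAS, ERK and PI3K cascades. ERBB2 has no known soluble ligand and acts as a partner for the others, while ERBB3 binds neuregulins and has little kinase activity of its own. In the gut epithelium this pathway is known for its part in growth and in repair after injury.

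Each library held 15393859 to 18284704 expected counts over 16391 to 16949 listed genes. Levels are given as CPM, expected counts scaled to a common library size. The human ITGB6 entry of the tables stood at 2200 and 2452 CPM in TG after DSS, against 0.709 and 1.13 CPM in WT after DSS, and at 3630 to 3912 CPM in untreated TG, against 0.117 to 0.123 CPM in untreated WT. Epithelial markers summed to 13310 to 19000 CPM and smooth muscle markers to 6.42 to 9.72 CPM over the 10 libraries, with the smooth muscle gene Des at 0 in both WT DSS libraries. Whether each library was a separate animal is not stated in the labels. A p-value here sets a difference against the spread among these libraries, which may not be the spread between animals. Xist, the RNA of the inactive X chromosome, read 307 to 739 CPM in every DSS library and 0 to 0.416 CPM in every untreated one, while the Y-linked Kdm5d was at 0 in every DSS library and at 26.6 to 44.2 CPM in every untreated one. Each difference between DSS and untreated groups is therefore also one between these patterns of sex-linked genes, and the influences of DSS and sex cannot be told apart. The library TG untreated 1 stood apart from its group: Ptprc, a leukocyte gene, had 8.94 CPM in it, while TG untreated 2 and 3 had 56.9 and 79.5 CPM.

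In the RefSeq annotation of GRCm38.p6, the ligand genes Epgn, Ereg, Areg and Btc lie together on chromosome 5 between 91027517 and 91402994, a stretch of 375478 bases with 7 annotated genes. Tgfa lies on chromosome 6, Egfr and Erbb2 on chromosome 11 and Erbb3 on chromosome 10. A RefSeq promoter entry was matched for 6 of the 9 genes, without Ereg, Hbegf and Erbb3. The 250 bases upstream of the annotated start are shown for Areg, Egfr and Erbb2, all on the plus strand, since these genes passed the test in at least 1 comparison and have an entry. Capitals mark matches to 4 motifs searched on both strands, which were the cyclic AMP response element TGACGTCA, the AP-1 site TGANTCA, the TATA box TATAAA and the ETS site CCGGAAG.
Areg chr5:91139349-91139598: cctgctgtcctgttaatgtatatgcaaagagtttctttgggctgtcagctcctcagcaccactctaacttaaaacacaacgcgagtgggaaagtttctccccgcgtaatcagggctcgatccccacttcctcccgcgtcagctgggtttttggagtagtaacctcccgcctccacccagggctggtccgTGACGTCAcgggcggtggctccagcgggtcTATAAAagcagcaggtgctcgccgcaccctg
Egfr chr11:16751953-16752202: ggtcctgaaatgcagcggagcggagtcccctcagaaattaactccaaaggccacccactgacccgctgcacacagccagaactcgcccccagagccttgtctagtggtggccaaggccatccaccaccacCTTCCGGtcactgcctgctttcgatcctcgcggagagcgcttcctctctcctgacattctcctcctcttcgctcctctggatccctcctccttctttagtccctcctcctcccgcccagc
Erbb2 chr11:98412234-98412483: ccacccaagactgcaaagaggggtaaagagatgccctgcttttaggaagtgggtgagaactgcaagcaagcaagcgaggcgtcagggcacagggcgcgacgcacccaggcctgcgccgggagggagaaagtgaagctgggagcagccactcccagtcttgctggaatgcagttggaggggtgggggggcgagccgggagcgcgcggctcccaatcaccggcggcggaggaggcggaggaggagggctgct

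The Areg promoter held TGACGTCA at -61 to -54 and TATAAA at -31 to -26 from the start. The Egfr promoter held the ETS site on the other strand, at -120 to -114, and the Erbb2 promoter held none of the 4 motifs. Of 32851 promoters of the same length, 1.55% held TGACGTCA, 6.75% TGANTCA, 12.4% TATAAA and 6.91% CCGGAAG. The GC content was 57.2% for Areg, 60.8% for Egfr and 66% for Erbb2. These matches are letters in a window, and binding was not measured.

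Per gene length, Hbegf and Areg were the most abundant ligands and Erbb2 and Erbb3 the most abundant receptors. On the authors' FPKM scale, which divides by gene length, Hbegf had a lowest, median and highest level of 73.0, 101 and 136 over the 10 libraries. Areg, which encodes amphiregulin, had levels of 28.7, 65.2 and 92.2 FPKM, and Tgfa, which encodes transforming growth factor alpha, 9.18, 11.1 and 12.1 FPKM. Btc (betacellulin) had 1.13, 1.84 and 3.06 FPKM, Ereg (epiregulin) 0.38, 1.04 and 1.90 FPKM, and Epgn (epigen) 0, 0.085 and 0.33 FPKM. Among ligands next to each other in this order, the ranges of Hbegf and Areg overlapped, as did those of Btc and Ereg, while the other neighbours did not overlap. Hbegf was nevertheless above Areg in each of the 10 libraries.

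Among the receptors, Erbb2 had a lowest, median and highest level of 38.9, 47.2 and 71.7 FPKM, Erbb3 35.7, 44.0 and 65.0 FPKM, and Egfr 5.44, 6.91 and 7.99 FPKM. The ranges of Erbb2 and Erbb3 overlapped, and Egfr lay below both in every library. Of the summed FPKM of the 6 ligands, Areg took 41.0 to 43.3% in TG after DSS, 35.7 to 36.2% in WT after DSS, 29.8 to 38.9% in untreated TG and 22.2 to 23.7% in untreated WT. Hbegf took 47.3 to 51.2% in TG after DSS, 55.0 to 56.7% in WT after DSS, 55.2 to 63.8% in untreated TG and 66.5 to 67.7% in untreated WT. The lowest Areg share and the highest Hbegf share were thus both in untreated WT, and the untreated WT range overlapped no other group for either ligand.

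**Figure D1:**
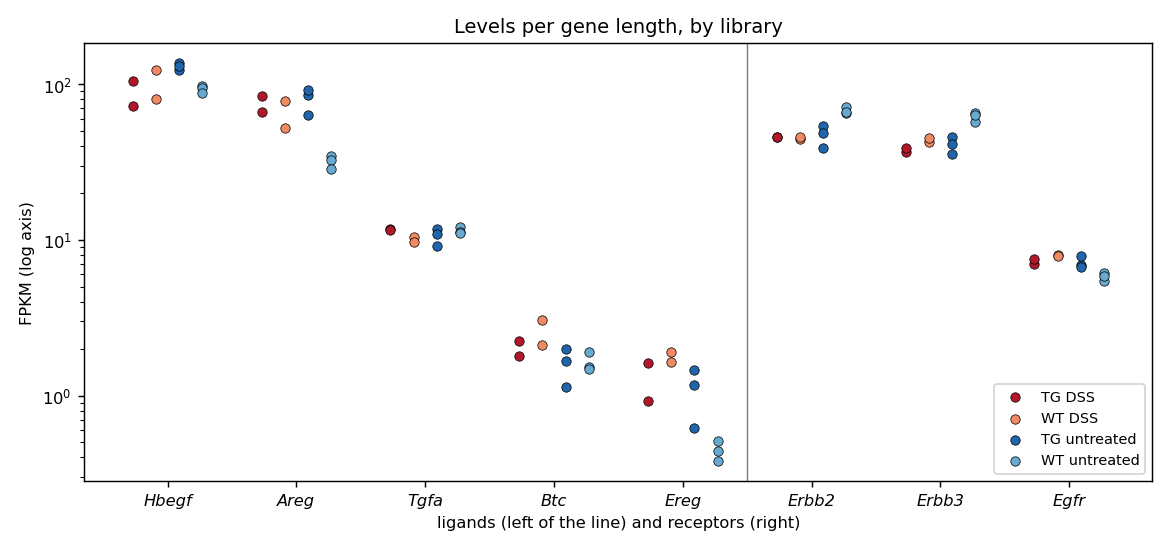
Levels of 5 ligands and 3 receptors in FPKM (vertical axis, logarithmic), with 1 point per library coloured by group. Hbegf and Areg are the highest ligands and Egfr is the lowest receptor; Epgn, between 0 and 0.33 FPKM, is not drawn because of its library at 0.

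Differences were tested with edgeR's quasi-likelihood test over 14072 genes with Benjamini-Hochberg adjustment, and a gene passed at an adjusted p under 0.05. Of the 9 genes, 8 passed the filter on low counts and were tested; Epgn did not. In untreated tissue, TG against WT, 1 member was higher (Areg) and 1 lower (Erbb3), beside 3.7% of all genes that passed (2.26% higher and 1.44% lower). In WT, DSS against untreated, 3 members were higher (Areg, Ereg and Egfr) and 2 lower (Erbb2 and Erbb3), beside 19.8% of all genes (10.2% higher and 9.62% lower). In TG, DSS against untreated, none passed, beside 5.48% of all genes (3.33% higher and 2.15% lower); 1 member had an unadjusted p under 0.05 and DESeq2 called 0. After DSS, TG against WT, none passed either, beside 0.185% of all genes (0.178% higher and 0.00711% lower), with 0 members at an unadjusted p under 0.05 and 0 called by DESeq2. Of all genes, DESeq2 called 7.4% for untreated TG against WT, 8.84% for DSS in TG and 1.83% for TG against WT after DSS. The share of all genes at an unadjusted p under 0.05 was not counted, so such counts here and below have no background.

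The all-gene background depends on the scaling. Under total count scaling the split of higher to lower genes was 235 to 382 in place of 318 to 202 for untreated TG against WT, and 1146 to 1700 in place of 1434 to 1354 for DSS in WT. It was 413 to 402 in place of 468 to 303 for DSS in TG, and 6 to 1 in place of 25 to 1 for TG against WT after DSS. The median log2 fold change of the 8 tested members was 0.17 for untreated TG against WT, where that of all genes was -0.02, and 0.40 for DSS in WT, where that of all genes was 0.00. It was 0.08 for DSS in TG, where that of all genes was 0.01, and -0.13 for TG against WT after DSS, where that of all genes was -0.01. Comparisons that use the same untreated or DSS libraries share them, so the members' values in such comparisons are not independent of each other.

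Areg, a ligand of EGFR, was lowest in untreated WT. It read 105 and 85.8 CPM in TG after DSS, 96.6 and 60.6 CPM in WT after DSS, 78.8, 101 and 113 CPM in untreated TG, and 40.3, 37.5 and 32.6 CPM in untreated WT. All 7 libraries of the first 3 groups lay above all 3 untreated WT libraries, and those 3 groups overlapped each other. The share of all genes with untreated WT apart from every other library was not counted, here or for the genes below. Areg rose in untreated TG against untreated WT (log2 fold change 1.41 ± 0.20 SE, 2.65-fold, edgeR adjusted p = 0.0071). It also rose in WT after DSS against untreated WT (1.09 ± 0.21, 2.14-fold, edgeR adjusted p = 0.00733). Its log2 fold change was -0.03 ± 0.21 for DSS against untreated in TG (edgeR adjusted p = 0.954) and 0.28 ± 0.23 for TG against WT after DSS (edgeR adjusted p = 0.705).

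The Areg call in untreated tissue ended without WT untreated 3 (log2 1.31, edgeR adjusted p = 0.0508; range over 16 alternatives 4.36e-09 to 0.0508), while the call for DSS in WT held in all 16, with a log2 fold change of 0.72 without WT DSS 1. Beside the rise in untreated TG, the summed fibroblast markers were at 37.4 to 96.9 CPM in untreated TG and 28.0 to 37.7 CPM in untreated WT. Within that list Col1a1 averaged 20.1 CPM in untreated TG and 5.81 CPM in untreated WT, and Pdgfrb 6.87 CPM in untreated TG and 11.6 CPM in untreated WT. Summed neutrophil markers were at 28.9 to 39.3 CPM in untreated TG and 61.7 to 78.2 CPM in untreated WT, and were mostly Ly6g, at means of 29.7 CPM in untreated TG and 62.3 CPM in untreated WT. The defining neutrophil genes S100a8 and S100a9 averaged 0.14 and 0.0811 CPM in untreated TG and 0 and 0.0205 CPM in untreated WT. Absorptive colonocyte markers were at 5907 to 10080 CPM in untreated TG and 9807 to 12270 CPM in untreated WT. TG untreated 1 held the 5907, with 9920 and 10080 CPM in TG untreated 2 and 3. The sum was mostly Car1, at means of 6573 CPM in untreated TG and 8461 CPM in untreated WT. Car4, Slc26a3 and Aqp8 also had lower means in untreated TG, while Krt20 averaged 1025 CPM in untreated TG and 1006 CPM in untreated WT. In bulk tissue, fewer cells of a type and less RNA per cell cannot be told apart, and the part of these cell types in the Areg difference was not tested.

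Ereg, next to Areg on chromosome 5 and a ligand of EGFR and ERBB4, was present at low levels with the same group at the bottom. It read 6.97 and 4.10 CPM in TG after DSS, 8.15 and 6.64 CPM in WT after DSS, 2.68, 5.96 and 4.96 CPM in untreated TG, and 1.52, 2.02 and 1.72 CPM in untreated WT. The untreated WT libraries lay below all others, and TG untreated 1 was the lowest of the rest. Ereg rose in WT after DSS (log2 fold change 2.07 ± 0.35, 4.20-fold, edgeR adjusted p = 0.00411), and passed in all 16 alternatives. For untreated TG against untreated WT the log2 fold change was 1.37 ± 0.33 and just missed the threshold (edgeR adjusted p = 0.0506). It passed there without the low-count filter (0.0429), by DESeq2 (DESeq2 adjusted p = 0.0051) and without TG untreated 1 (edgeR adjusted p = 0.0113). The log2 fold change was 0.29 ± 0.34 for DSS in TG (edgeR adjusted p = 0.706) and -0.42 ± 0.36 for TG against WT after DSS (edgeR adjusted p = 0.719).

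Hbegf, on chromosome 18, encodes heparin-binding EGF-like growth factor and did not pass in any comparison. It read 262 and 188 CPM in TG after DSS, 303 and 187 CPM in WT after DSS, 337, 290 and 321 CPM in untreated TG, and 226, 218 and 199 CPM in untreated WT. The untreated TG libraries lay above all untreated WT and all TG DSS libraries, and the WT DSS pair lay apart, with 1 library below all untreated WT libraries and the other between the untreated TG libraries. Its log2 fold change was 0.56 ± 0.18 for untreated TG against WT (edgeR adjusted p = 0.117), which passed when the 2 groups were fitted alone (0.0299) or without WT DSS 1 (0.0465). For DSS against untreated it was -0.49 ± 0.20 in TG (edgeR adjusted p = 0.208) and 0.19 ± 0.20 in WT (0.546), and the WT value was -0.19 without WT DSS 1.

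Tgfa was the steadiest ligand by range, with all libraries between 41.4 and 57.2 CPM. It read 56.3 and 57.2 CPM in TG after DSS, 49.0 and 42.9 CPM in WT after DSS, 55.7, 41.4 and 51.5 CPM in untreated TG, and 53.5, 49.1 and 48.3 CPM in untreated WT. No comparison passed, with log2 fold changes between -0.13 ± 0.14 (DSS in WT) and 0.30 ± 0.15 (TG against WT after DSS).

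Btc read 6.68 and 5.56 CPM in TG after DSS, 9.10 and 5.88 CPM in WT after DSS, 3.40, 5.67 and 4.96 CPM in untreated TG, and 5.28, 4.22 and 4.06 CPM in untreated WT. The WT DSS libraries lay above the untreated WT libraries, with a log2 fold change of 0.73 ± 0.27 that did not pass (edgeR adjusted p = 0.0842) other than without TG untreated 1 (0.0369). For untreated TG against WT it was 0.05 ± 0.25, and -0.03 under total count scaling. Epgn was at the edge of detection, with 10 and 3 expected counts in TG after DSS, 3 and 5 in WT after DSS, 4, 2 and 1 in untreated TG, and 2, 0 and 1 in untreated WT. No fold change is given for it, since the counts are too few.

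**Figure D2:**
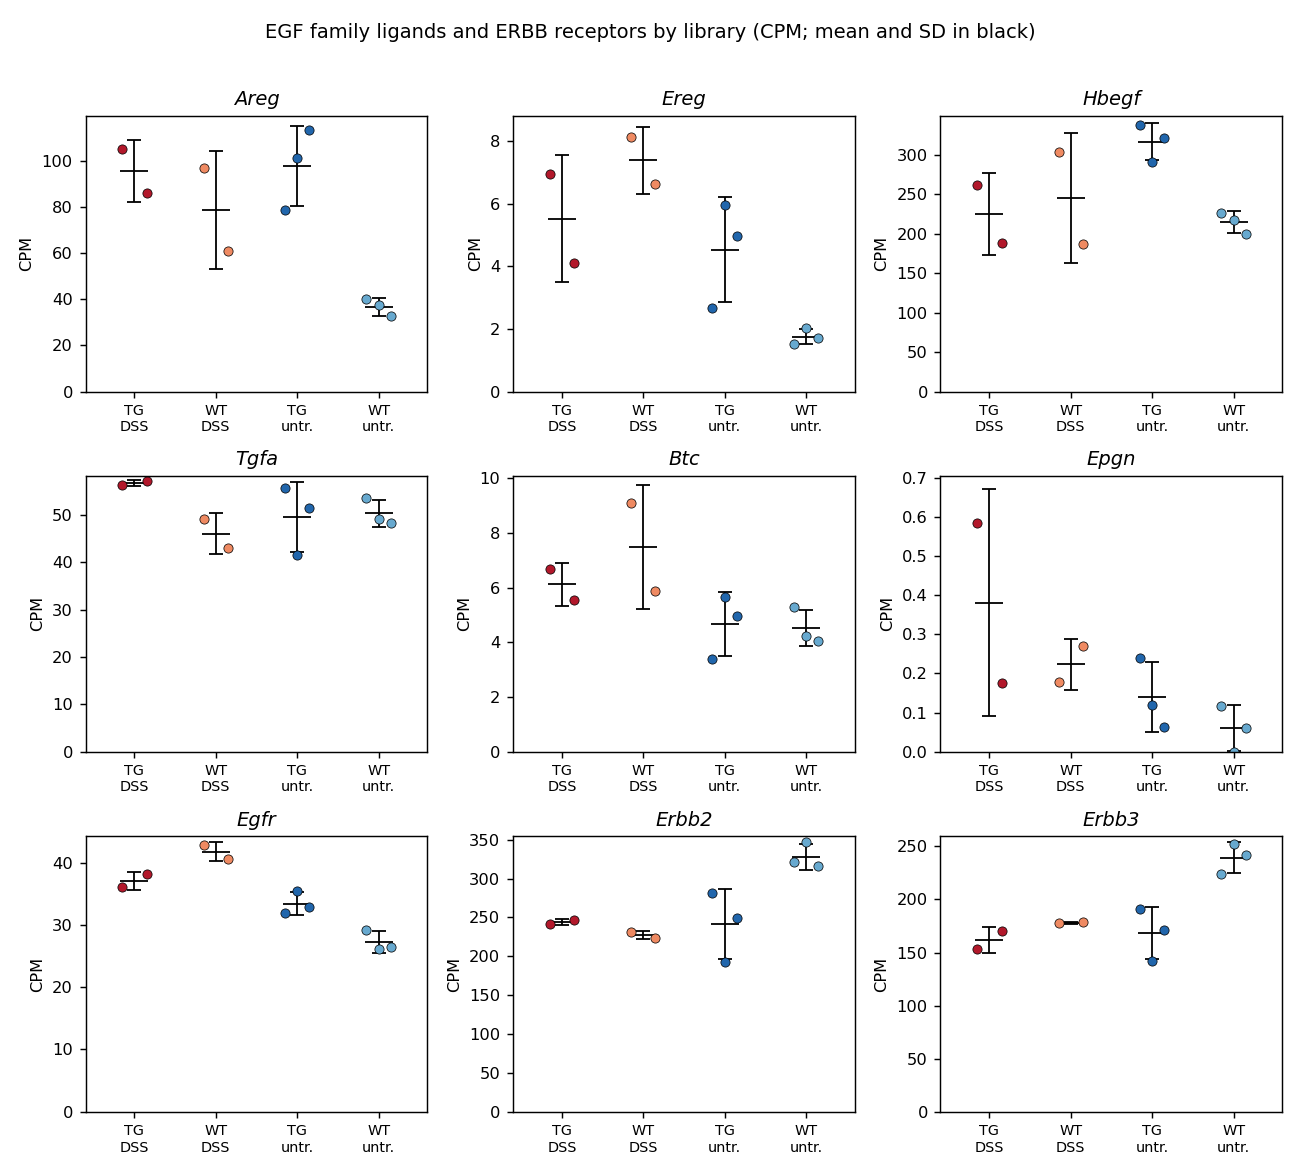
CPM of the 6 ligands and 3 receptors in each library (points), by group, with the group mean and SD in black and the vertical axes starting at 0. In untreated WT, Areg (32.6 to 40.3 CPM), Ereg (1.52 to 2.02 CPM) and Egfr (26.1 to 29.2 CPM) are lowest, and Erbb2 (317 to 347 CPM) and Erbb3 (224 to 252 CPM) highest. The share of all genes with untreated WT lowest or highest was not counted.

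Among the receptors, Egfr had its lowest values in untreated WT, and Erbb2 and Erbb3 had their highest there. Egfr, the receptor shared by all 6 ligands, read 36.0 and 38.1 CPM in TG after DSS, 42.9 and 40.6 CPM in WT after DSS, 31.9, 35.4 and 32.9 CPM in untreated TG, and 29.2, 26.1 and 26.4 CPM in untreated WT. The 4 groups did not overlap each other in CPM, and the share of all genes with groups apart in this way was not counted. Egfr rose in WT after DSS against untreated WT (log2 fold change 0.62 ± 0.11, 1.53-fold, edgeR adjusted p = 0.00509) and passed in all 16 alternatives. Its other differences did not pass: 0.29 ± 0.10 for untreated TG against WT (edgeR adjusted p = 0.134), 0.15 ± 0.11 for DSS in TG (0.505) and -0.17 ± 0.12 for TG against WT after DSS (0.638). The gene length that the deposited tables give for Egfr, which follows the transcripts assigned, was 4923 and 4651 bases in TG after DSS, 5173 and 5242 in WT after DSS, 4463, 4523 and 4790 in untreated TG, and 4921, 4968 and 4706 in untreated WT. The 2 longest lengths were in WT after DSS, the group with the highest Egfr counts. In FPKM, which divides by length, TG after DSS (6.97 to 7.57) and untreated TG (6.65 to 7.89) overlapped. WT after DSS was still highest (7.90 to 7.99 FPKM) and untreated WT lowest (5.44 to 6.09 FPKM).

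Erbb2 read 242 and 246 CPM in TG after DSS, 231 and 224 CPM in WT after DSS, 282, 193 and 249 CPM in untreated TG, and 321, 347 and 317 CPM in untreated WT. Every untreated WT library lay above all 7 others, and the untreated TG libraries spread across both DSS groups. Erbb2 fell in WT after DSS by 0.53 ± 0.15 on the log2 scale (1.44-fold lower, edgeR adjusted p = 0.031). For untreated TG against WT the log2 fold change was -0.44 ± 0.13 and did not pass (edgeR adjusted p = 0.0908), though it did under total count scaling (0.0366), by DESeq2 (DESeq2 adjusted p = 0.0383) and without TG untreated 1 (edgeR adjusted p = 0.0232). It was 0.02 ± 0.15 for DSS in TG, -0.04 under total count scaling, and 0.10 ± 0.16 for TG against WT after DSS.

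Erbb3 read 154 and 170 CPM in TG after DSS, 177 and 178 CPM in WT after DSS, 191, 142 and 171 CPM in untreated TG, and 224, 252 and 242 CPM in untreated WT. Again the untreated WT libraries lay above all others, and the remaining groups were within 142 to 191 CPM. Erbb3 fell in untreated TG against untreated WT by 0.51 ± 0.12 on the log2 scale (1.42-fold lower, edgeR adjusted p = 0.0433) and in WT after DSS by 0.43 ± 0.13 (1.35-fold lower, edgeR adjusted p = 0.046). Its log2 fold change was -0.06 ± 0.13 for DSS in TG and -0.14 ± 0.14 for TG against WT after DSS.

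The calls of both receptors were close to the threshold. That of Erbb3 in untreated tissue ended without each of the 9 libraries other than TG untreated 1 (edgeR adjusted p = 0.0503 to 0.147), and when only the groups compared were fitted (0.0656). For DSS in WT, the Erbb2 call ended without any 1 of the untreated WT, WT DSS or TG DSS libraries (edgeR adjusted p = 0.0518 to 0.175). The Erbb3 call ended without any 1 of those or TG untreated 3 (0.0635 to 0.196), with DESeq2's size factors (0.051) and without the low-count filter (0.0524). Beside the DSS differences of the ligands and receptors in WT, absorptive colonocyte markers were at 4437 to 6898 CPM in WT after DSS and 9807 to 12270 CPM in untreated WT. That sum was mostly Car1, at means of 4035 CPM in WT after DSS and 8461 CPM in untreated WT. The proliferation genes Mki67 and Top2a averaged 397 and 250 CPM in WT after DSS and 117 and 70.9 CPM in untreated WT, and took most of the summed stem and transit cell markers (385 to 920 CPM in WT after DSS, 194 to 219 CPM in untreated WT). The stem cell genes Lgr5 and Ascl2 of that list had the other order: Lgr5 averaged 3.94 CPM in WT after DSS and 11.6 CPM in untreated WT, and Ascl2 1.51 CPM in WT after DSS and 6.07 CPM in untreated WT. Olfm4 was near the floor, at 0 to 0.177 CPM in WT after DSS and 0 to 1.82 CPM in untreated WT, and gives no order. Summed neutrophil markers were at 138 to 145 CPM in WT after DSS and 61.7 to 78.2 CPM in untreated WT, with Ly6g at a mean of 112 CPM in WT after DSS and 62.3 CPM in untreated WT. Summed leukocyte and macrophage markers had the other order, at 39.8 to 57.2 CPM in WT after DSS and 72.0 to 127 CPM in untreated WT. Within that list Ptprc averaged 19.2 CPM in WT after DSS and 80.9 CPM in untreated WT, while Cd68, Csf1r, Adgre1, Lyz2 and Itgam had higher means after DSS. The part of these cell types in the values of the ligands and receptors was not tested.

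Whether the DSS difference of a gene was another in TG than in WT was asked with the genotype by DSS interaction, the log2 difference between DSS and untreated in TG minus that in WT. Since the sex-linked genes split the DSS from the untreated libraries in both genotypes, DSS and sex cannot be told apart in it. No member passed by edgeR, beside 0.846% of all genes (0.526% higher and 0.32% lower), while 5 members had an unadjusted p under 0.05. DESeq2 called 2, Areg and Ereg, beside 3.06% of all genes. The interaction was -1.13 ± 0.30 for Areg (edgeR adjusted p = 0.142), -1.78 ± 0.49 for Ereg (0.152) and -0.68 ± 0.28 for Hbegf (0.372). It was -0.47 ± 0.16 for Egfr (0.258), 0.54 ± 0.20 for Erbb2 (0.324) and 0.37 ± 0.19 for Erbb3 (0.464). For Btc it was -0.34 ± 0.38 and for Tgfa 0.33 ± 0.19. A negative value means that the DSS difference was lower in TG than in WT, and a positive one that it was higher in TG. Without TG untreated 1, Areg (edgeR adjusted p = 0.0392) and Ereg (0.0266) passed; by DESeq2 the adjusted p was 0.0217 for Areg and 0.0372 for Ereg.

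**Figure D3:**
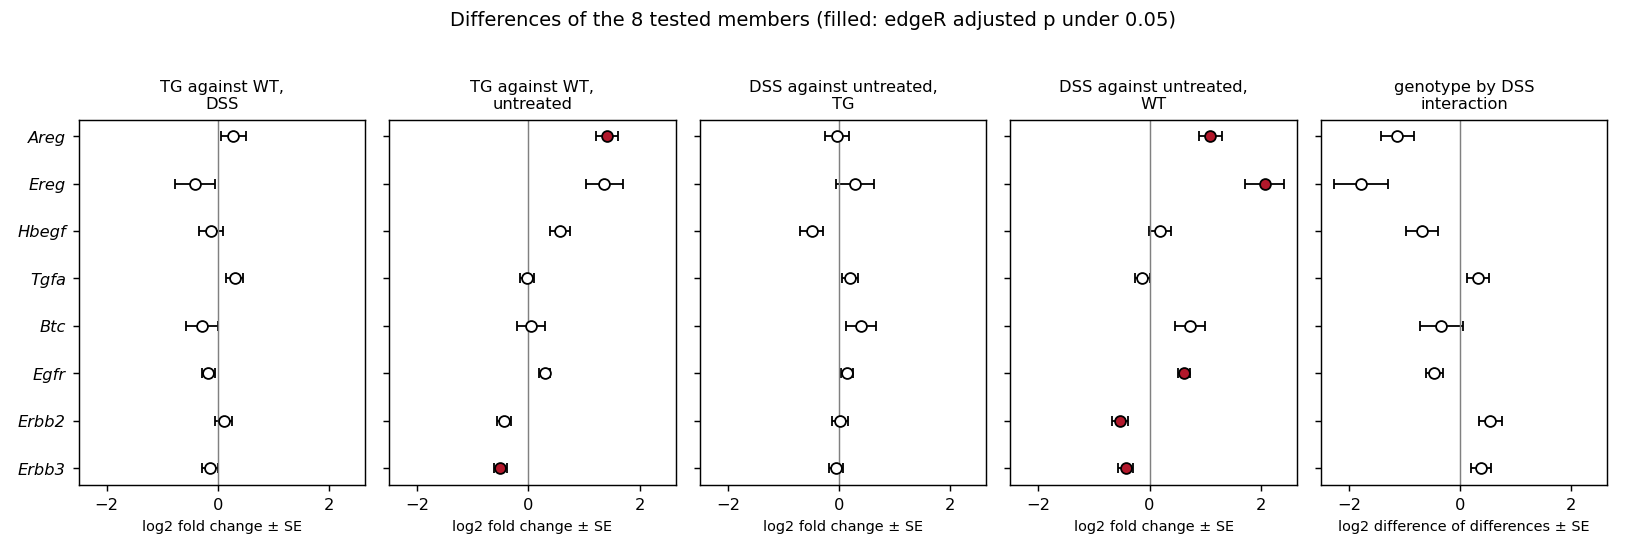
Log2 fold changes with their SE (horizontal axis) of the 8 tested members in each comparison, with the interaction at the right; filled points passed at an edgeR adjusted p under 0.05. The filled points are Areg and Erbb3 for untreated TG against WT, and Areg, Ereg, Egfr, Erbb2 and Erbb3 for DSS in WT.

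The other genes of the family were scarce. Erbb4, the remaining receptor, was listed in none of the 10 libraries, and Nrg1, Nrg2 and Nrg3, neuregulins that bind ERBB3 or ERBB4, stood at or below 0.354 CPM. Nrg4, a ligand of ERBB4, read 0.648 to 2.52 CPM and passed in no comparison. Egf, the founding ligand, read 6.15 and 5.21 CPM in TG after DSS, 4.55 and 3.56 CPM in WT after DSS, 6.38, 7.03 and 5.64 CPM in untreated TG, and 8.62, 5.95 and 6.27 CPM in untreated WT. Egf fell in WT after DSS by 0.78 ± 0.23 on the log2 scale (1.71-fold lower, edgeR adjusted p = 0.0398), a call lost in 9 of 16 alternatives.

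Of 7 genes of ligand shedding and its control, which include the sheddase inhibitor gene Timp3, 6 were tested. Among them, 1 was lower in untreated TG against WT (Timp3), where 3.7% of all genes passed. In WT after DSS 2 were lower (Timp3 and Rhbdf1), where 19.8% passed. None passed by edgeR or DESeq2 for DSS in TG, where 5.48% of all genes passed, with 0 at an unadjusted p under 0.05, or for TG against WT after DSS, with 1. Timp3, an inhibitor of the sheddase ADAM17, read 6.27 and 4.39 CPM in TG after DSS, 4.43 and 3.62 CPM in WT after DSS, 5.13, 6.91 and 6.51 CPM in untreated TG, and 14.4, 14.3 and 14.2 CPM in untreated WT. Every untreated WT library was above 14 CPM and every other library below 7 CPM. Timp3 fell in untreated TG by 1.21 ± 0.18 on the log2 scale (2.31-fold lower, edgeR adjusted p = 0.0106, or 0.0509 without WT untreated 3) and in WT after DSS by 1.83 ± 0.22 (3.55-fold lower, edgeR adjusted p = 0.000622). Its interaction was 1.62 ± 0.30 (edgeR adjusted p = 0.0406) and passed in 6 of 15 alternatives.

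Rhbdf1, whose product iRhom1 carries ADAM17 to the cell surface, read 45.3 and 41.3 CPM in TG after DSS, 31.8 and 32.3 CPM in WT after DSS, 53.6, 46.5 and 47.0 CPM in untreated TG, and 53.7, 49.97 and 52.8 CPM in untreated WT. The WT DSS pair was the lowest of all. Rhbdf1 fell in WT after DSS by 0.70 ± 0.11 on the log2 scale (1.63-fold lower, edgeR adjusted p = 0.00317) and passed in all 16 alternatives. Adam17 itself read 33.5 to 36.5 CPM in TG after DSS, 40.6 to 47.9 CPM in WT after DSS, 20.4 to 38.7 CPM in untreated TG and 30.9 to 35.2 CPM in untreated WT, and did not pass in any comparison.

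**Figure D4:**
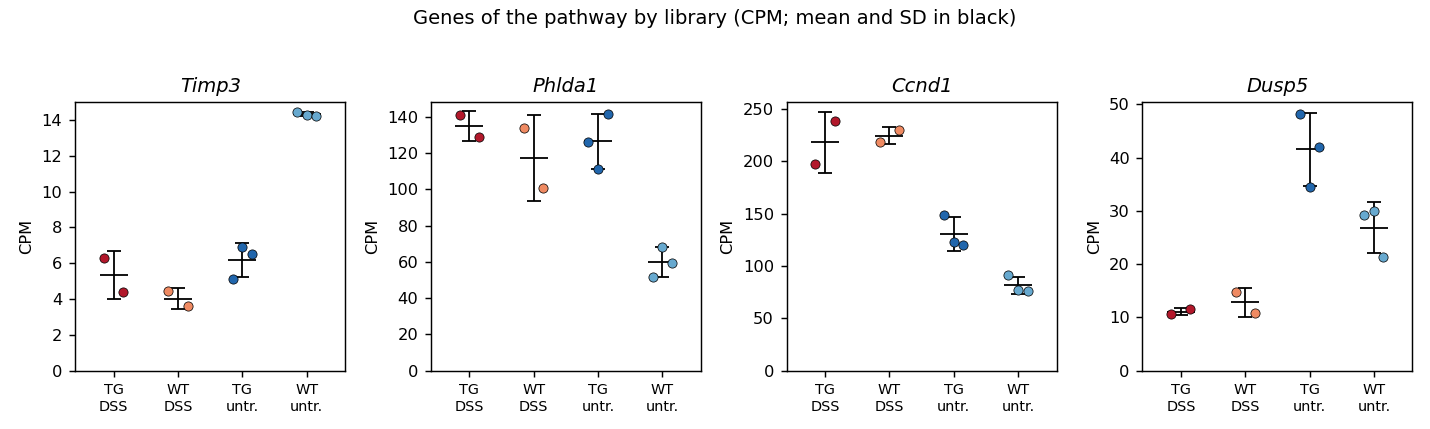
CPM by library (points), by group, with the mean and SD in black, for the ADAM17 inhibitor Timp3 and for Phlda1, Ccnd1 and Dusp5 of the ERK-responsive list. Timp3 stands near 14 CPM in untreated WT only, and Dusp5 is lowest in both DSS groups.

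Of 13 receptor inhibitors and feedback genes, none passed for untreated TG against WT by edgeR, with 7 at an unadjusted p under 0.05. DESeq2 called 1 of them there, beside 7.4% of all genes. None passed for TG against WT after DSS, with 0 at an unadjusted p under 0.05 and 0 by DESeq2. For DSS, 1 rose and 1 fell in TG, where 5.48% of all genes passed, and 1 rose and 2 fell in WT, where 19.8% did and the share of the list was near that. Spry4, a feedback inhibitor of receptor signalling, read 9.43 and 9.60 CPM in TG after DSS, 6.20 and 7.56 CPM in WT after DSS, 4.53, 3.78 and 4.59 CPM in untreated TG, and 2.76, 1.31 and 3.26 CPM in untreated WT. It rose after DSS by 1.15 ± 0.29 on the log2 scale in TG (edgeR adjusted p = 0.0498) and by 1.49 ± 0.30 in WT (0.00917). Its relative Spry1 fell by 1.11 ± 0.22 in TG (edgeR adjusted p = 0.019) and by 0.92 ± 0.22 in WT (0.0191). Cblb, a ubiquitin ligase that marks receptors for degradation, fell by 0.52 ± 0.15 in WT (edgeR adjusted p = 0.0376). All 5 of these calls ended without WT DSS 2 in WT or without either TG DSS library in TG (edgeR adjusted p = 0.0675 to 0.259). Of 16 alternatives, Spry4 passed in 6 in TG and 15 in WT, Spry1 in 13 in TG and 14 in WT, and Cblb in 9 in WT; the Spry4 call in TG also ended under total count scaling (0.0636).

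Among 24 adaptors and signal transducers, 1 rose and 4 fell in WT after DSS, where 19.8% of all genes passed, a share near that of the list. None passed by edgeR in the other comparisons, with 7 at an unadjusted p under 0.05 and 1 by DESeq2 for untreated TG against WT, 3 and 0 for DSS in TG, and 3 and 0 for TG against WT after DSS. DESeq2 called 7.4% of all genes for untreated TG against WT. Stat3, a transcription factor activated by receptors, rose by 0.58 ± 0.15 on the log2 scale in WT after DSS (edgeR adjusted p = 0.0212). The docking protein gene Gab1 fell by 0.78 ± 0.19 (edgeR adjusted p = 0.0208), the phospholipase gene Plcg1 by 0.65 ± 0.15 (0.0153) and the ERK kinase gene Map2k1 by 0.59 ± 0.14 (0.0159). Src, a kinase gene named after its values were seen, fell by 0.44 ± 0.12 (edgeR adjusted p = 0.0268). The Stat3 and Gab1 calls ended without either WT DSS library (0.0549 to 0.127) or 2 of the untreated WT libraries (0.0509 to 0.078), that of Plcg1 without WT DSS 1 (0.0704) and that of Map2k1 without WT DSS 2 (0.102). The count was 3 higher and 7 lower without TG untreated 1, where 29.3% of all genes passed. Fewer of the list passed without WT DSS 2, which leaves 1 library in that group.

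Of 12 ERK-responsive genes, whose transcription follows ERK activity in many cells, 4 rose and none fell in untreated TG against WT, where 3.7% of all genes passed. In that comparison 11 of the 12 log2 fold changes lay above 0, with a median of 0.61, where that of all genes was -0.02. The list was chosen with earlier results of these data known, so these counts are no independent test of it. ERK activity was not measured. In TG after DSS 3 rose and 1 fell, with a median of -0.34, where 5.48% of all genes passed, and in WT after DSS 4 rose and 2 fell, with a median of 0.18, where 19.8% passed. For TG against WT after DSS none passed by edgeR or DESeq2, with 2 at an unadjusted p under 0.05. The count of 4 in untreated tissue was 2 without WT untreated 1 or 2, 0 without WT untreated 3 (all 3 cases by edgeR), 1 without TG untreated 2, and 6 by DESeq2. The 3 rises in TG after DSS were 0 without TG untreated 3 or TG DSS 2, 1 without WT untreated 3, TG untreated 2 or TG DSS 1, and 0 when only the groups compared were fitted.

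Phlda1, a pleckstrin homology-like domain gene, had levels of 141 and 129 CPM in TG after DSS, 134 and 100.4 CPM in WT after DSS, 126, 111 and 142 CPM in untreated TG, and 51.8, 68.3 and 59.5 CPM in untreated WT. Like Areg, it was lowest in all 3 untreated WT libraries. Phlda1 rose in untreated TG by 1.08 ± 0.15 on the log2 scale (edgeR adjusted p = 0.0071, or 0.05 without WT untreated 3) and in WT after DSS by 0.97 ± 0.16 (edgeR adjusted p = 0.00398). Fosl1, an AP-1 subunit gene, rose in untreated TG by 1.60 ± 0.29 (edgeR adjusted p = 0.0205). Its levels were low, at 3.93 to 5.02 CPM in untreated TG and 1.17 to 1.76 CPM in untreated WT. Ier3, an immediate early gene, rose in untreated TG by 0.82 ± 0.14 (edgeR adjusted p = 0.0146). Ccnd1, which encodes cyclin D1, rose there by 0.68 ± 0.12 (edgeR adjusted p = 0.0207). Each of these 3 calls ended without WT untreated 3 (0.0707 to 0.105) and without TG untreated 2 (0.0535 to 0.0765), that of Fosl1 and Ier3 without WT untreated 1 (0.0631 and 0.0619), that of Fosl1 and Ccnd1 without WT untreated 2 (0.0924 and 0.103) and that of Fosl1 without TG untreated 3 (0.0535).

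Ccnd1 had levels of 197 and 239 CPM in TG after DSS, 219 and 230.1 CPM in WT after DSS, 149, 123 and 120 CPM in untreated TG, and 91.2, 77.4 and 76.2 CPM in untreated WT. Both DSS groups lay above both untreated groups. It rose after DSS by 0.74 ± 0.14 on the log2 scale in TG (edgeR adjusted p = 0.0126) and by 1.46 ± 0.14 in WT (0.000178). Dusp6, an ERK phosphatase, rose after DSS by 0.70 ± 0.17 in TG (edgeR adjusted p = 0.0455) and by 1.25 ± 0.17 in WT (0.00155), and Ier3 rose by 0.66 ± 0.14 in TG (0.0276). Dusp5, an ERK phosphatase of the nucleus, went the other way: it had 10.7 and 11.5 CPM in TG after DSS, 14.8 and 10.9 CPM in WT after DSS, 48.2, 34.5 and 42.0 CPM in untreated TG, and 29.1, 30.0 and 21.3 CPM in untreated WT. It fell after DSS by 1.91 ± 0.21 in TG (edgeR adjusted p = 0.000929) and by 1.07 ± 0.21 in WT (0.0078, or 0.0831 without WT DSS 2). Ier3 (0.97 ± 0.15, edgeR adjusted p = 0.00252) and Mcl1 (-0.53 ± 0.12, edgeR adjusted p = 0.0135) completed the calls for DSS in WT and were named after their values were seen. Beside the DSS differences in TG, neutrophil markers were at 185 to 252 CPM in TG after DSS and 28.9 to 39.3 CPM in untreated TG. Ly6g alone averaged 197 CPM in TG after DSS and 29.7 CPM in untreated TG. Leukocyte and macrophage markers summed to 37.3 to 42.9 CPM in TG after DSS and 17.8 to 97.5 CPM in untreated TG. The 17.8 CPM was in TG untreated 1. Of these markers, Ptprc averaged 13.8 CPM in TG after DSS and 48.4 CPM in untreated TG. Cd68, Csf1r, Adgre1, Lyz2 and Itgam went the other way, with higher means in TG after DSS. Stem and transit cell markers summed to 335 to 364 CPM in TG after DSS and 112 to 303 CPM in untreated TG. TG untreated 1 held the 112, with 296 and 303 CPM in TG untreated 2 and 3. Within that list Mki67 averaged 193 CPM (176 to 210) in TG after DSS and 126 CPM (44.4 to 174) in untreated TG. Lgr5 had the other order, at means of 4.83 CPM in TG after DSS and 10.4 CPM in untreated TG. So did Ascl2, at 4.83 CPM in TG after DSS and 9.71 CPM in untreated TG. The part of these cell types in the values of the pathway genes was not tested.

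**Figure D5:**
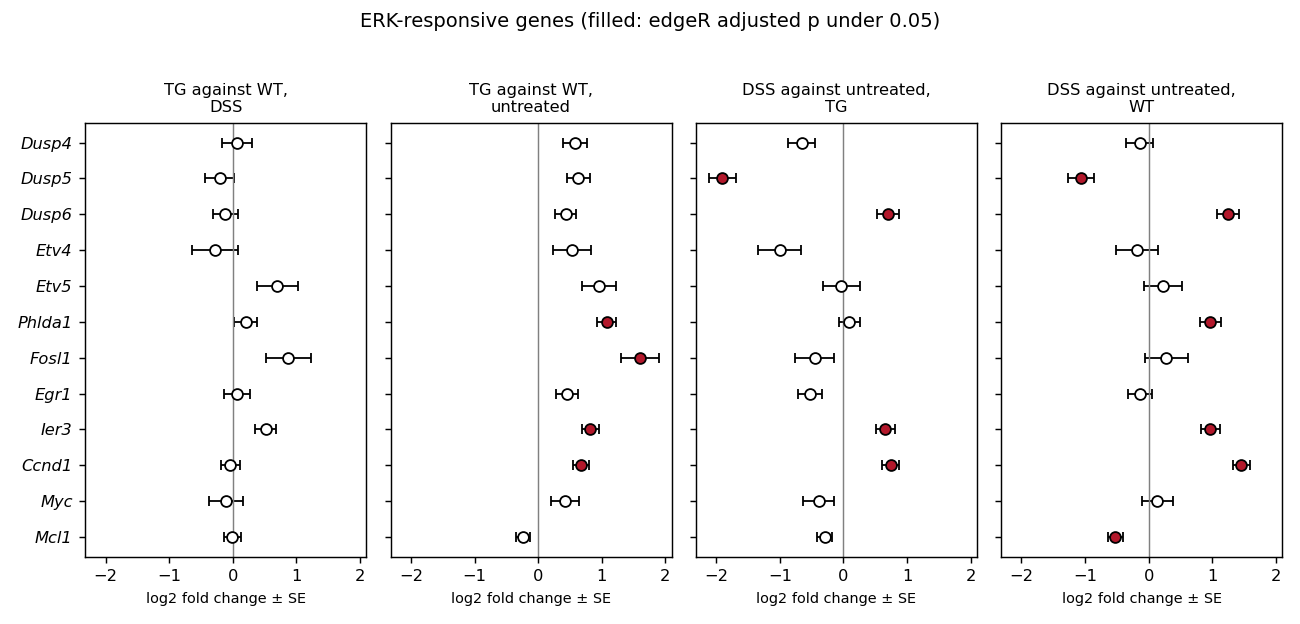
Log2 fold changes with their SE (horizontal axis) of the 12 ERK-responsive genes in 4 comparisons; filled points passed at an edgeR adjusted p under 0.05. For untreated TG against WT 11 of the 12 points lie above 0 and 4 are filled. The list was chosen with earlier results of these data known.

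Over the 10 libraries, the genes most like each called member were found by the root mean square difference of log2 CPM, each gene centred on its own mean. For Areg, whose own root mean square was 0.64, they were Phlda1 (0.23) and Gpr20 (0.24). For Ereg, with 0.83 of its own, they were Ifit1bl1 (0.27) and Gm14137 (0.27), and for Egfr, with 0.23, Hsd17b12 (0.05) and Hacd2 (0.06). Erbb2, with 0.25, was nearest to Irf2bpl and Peak1 (0.09 each), and Erbb3, with 0.26, to Zfp707 (0.08) and Zfp395 (0.08).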

How the data were processed

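Poly-A RNA of intestinal tissue was sequenced on a BGISEQ-500 in 10 libraries, with groups taken from the labels. The submitters' processing notes list RSEM 1.2.12, Bowtie2 2.2.5 and HISAT2 2.0.4 with the mm10 genome, and give neither role nor order. The authors deposited expected counts, FPKM and a gene length per gene and library, per the file headers; genes not listed in a library entered as 0. After rounding, expected counts were TMM-scaled, and filterByExpr (minimum count 10, minimum total 15) left 14072 genes. The test was the quasi-likelihood F test of edgeR 4.0.16 (R 4.3.3), with a mean for each group, all 10 libraries in a single fit, 6 residual degrees of freedom and a biological coefficient of variation of 0.171. SE is the absolute log2 fold change over the square root of F. CPM uses the TMM-scaled library sizes. The deposited FPKM values were used only for levels between genes, ligand shares by group and the Egfr group ranges. No 2 libraries of a group were duplicates (chi-square per gene 9.98 to 65.1).

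The alternatives were DESeq2 1.42.0, DESeq2's size factors, total count scaling, no low-count filter, only the groups compared, a replicate block and leaving out each library. The members and gene lists were chosen with earlier results of these data known. Named beyond the members were up to 4 called genes per list and comparison, by largest log2 fold change, at a mean of at least 1 CPM, and the 2 genes most like each called member. The edgeR procedure was checked on simulated counts. Sequences and positions come from RefSeq, GRCm38.p6.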

Additional observations from a re-analysis of the deposited data

Results flagged for a closer look

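Timp3, which encodes an inhibitor of the ligand sheddase ADAM17, had a genotype by DSS interaction of 1.62 on the log2 scale (SE 0.30, edgeR adjusted p = 0.0406). It stands out because the test of the difference itself passed: DSS against untreated gave a log2 fold change of -1.83 in WT, and in TG the groups overlapped, at 6.27 and 4.39 CPM after DSS and 5.13, 6.91 and 6.51 CPM untreated. DSS and sex cannot be told apart in this interaction. The adjusted p was above the threshold in 9 of 15 alternatives, up to 0.196 without TG DSS 1.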

How the results depend on the processing

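The count of called members was 2 for untreated TG against WT, 4 by DESeq2 and 1 with a replicate block. It ranged from 0 (without WT untreated 3) to 4 (without TG untreated 1) when 1 library was left out. Of all genes, 3.7% passed there, 7.4% by DESeq2, 1.18% with the block, 0.413% without WT untreated 3 and 5.19% without TG untreated 1. For DSS in WT the count of members was 5, 3 with a replicate block, and 3 to 6 when 1 library was left out. Of all genes, 19.8% passed there, 11.5% with the block, 10.7% without WT untreated 2 and 29.3% without TG untreated 1. The interaction count of members was 0, 2 by DESeq2, and 0 to 2 when 1 library was left out. Of all genes, 0.846% passed, 3.06% by DESeq2 and 2.74% without TG untreated 1. DSS in TG and TG against WT after DSS stayed at 0 in all 16 alternatives. The replicate numbers share no stated animal or batch. Deviations from the group mean of same-numbered untreated TG and WT libraries correlated at 0.083, -0.013 and -0.186. Those of WT DSS with untreated WT correlated at -0.011 and -0.089, and those of TG DSS with untreated TG at -0.29 and -0.219. The TG and WT DSS groups gave 0.206 for both numbers, since deviations in a group of 2 mirror each other. Deviations sum to 0 within each group, so these correlations cannot decide whether the numbers pair libraries. Under the replicate block the calls of Erbb3 for untreated TG against WT and of Erbb2 and Erbb3 for DSS in WT were lost (edgeR adjusted p = 0.117, 0.0799 and 0.131). So were, for untreated TG against WT, Fosl1 (0.0587) and Ccnd1 (0.0573), for DSS in TG, Ccnd1 (0.0629), Dusp6 (0.1), Ier3 (0.0847) and Spry4 (0.0773), for DSS in WT, Egf (0.0523), Cblb (0.108) and Stat3 (0.0625), and the interaction of Timp3 (0.122).

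Total count scaling turned the sign of Btc for untreated TG against WT (-0.027) and of Erbb2 for DSS in TG (-0.039), neither of them called. Leaving out 1 library turned the sign of 11 log2 fold changes that were not called. For DSS in TG they ranged from -0.19 to 0.10 for Areg, -0.14 to 0.62 for Ereg, -0.12 to 0.14 for Erbb2 and -0.16 to 0.045 for Erbb3. For TG against WT after DSS they ranged from -0.016 to 0.65 for Areg, -0.43 to 0.27 for Hbegf and -0.57 to 0.056 for Btc. For untreated TG against WT they ranged from -0.11 to 0.07 for Tgfa and -0.14 to 0.23 for Btc, for DSS in WT from -0.19 to 0.50 for Hbegf, and for the interaction from -0.62 to 0.006 for Btc. The cause was not tested. Groups of 2 and 3 libraries limit every comparison, and the low counts of Ereg, Btc, Epgn and Fosl1 limit theirs further.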
